A study of Mus musculus with 18 samples.

Results

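The activity-induced effector genes Arc, Homer1, Nptx2, Ptgs2, Rgs2, Dusp1, Dusp6, Sik1, Plk2 and Inhba were examined in the mouse hippocampus, which animals rely on to learn and recall places. They were chosen by gene name, with earlier results of these data known. Every probe set annotated to one of them alone was taken, which gave 23 of the 45101 probe sets on the array. A probe set is a group of short DNA probes that together read 1 stretch of transcript, and a gene can have several. Of the 23, 19 were bright enough to be tested, and these covered all 10 genes. The 4 probe sets left out as too dim belonged to Homer1, Inhba, Plk2 and Sik1, genes that each kept at least 1 tested probe set.

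The 18 arrays, 1 per hippocampus sample, fell into 3 groups of 6: aged mice with impaired spatial memory, aged mice with unimpaired spatial memory, and young mice. The study compared aged animals of poor and of good spatial memory, and the young group gave the level before ageing. No strain, age, sex, treatment or genotype is given in the sources used here, nor whether the animals had been trained shortly before collection. The labels do not say that each sample came from a different animal, so the p-values may reflect technical as well as biological spread.

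When a neuron fires strongly, calcium entering through its receptors and channels starts kinase cascades that reach the nucleus and switch on a first wave of genes within minutes. Some encode transcription factors such as Fos. Others, the effectors, act directly at the synapse or on the signal itself. Arc drives the removal of AMPA-type glutamate receptors from the synapse. Homer1 encodes long scaffold forms that are made all the time and link metabotropic glutamate receptors to internal calcium stores, and a short form, Homer1a, that activity induces and that loosens this scaffold. Nptx2 is a secreted pentraxin that gathers AMPA receptors on interneurons. Ptgs2 is the inducible cyclooxygenase of prostaglandin synthesis. Rgs2 shortens G protein signals. Dusp1 and Dusp6 are phosphatases that switch off MAP kinases, Sik1 is a kinase that restrains CREB-driven transcription, and Plk2 is a kinase that weakens overactive synapses. Inhba encodes the subunit of activin A, a secreted ligand.

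Promoter sequences, from 250 bases before to 50 bases after the annotated start, were found in the RefSeq table of build GRCm38.p6 for 7 of the 10 genes, with a pair of starts for Homer1. Arc, Nptx2 and Sik1 had no entry. Each was searched on both strands for the cyclic AMP response element TGACGTCA, the site that CREB is known to bind, for its core TGACG, and for the CArG box bound by serum response factor. Overlapping matches were each counted. The promoters below are those of Homer1, where 1 of 5 tested probe sets was called different between groups, and of Plk2 and Dusp6. The last 2 varied most closely with Arc among the other 9 genes. Capitals mark the core on either strand.
Homer1 first start, chr13:93303507-93303806, plus strand: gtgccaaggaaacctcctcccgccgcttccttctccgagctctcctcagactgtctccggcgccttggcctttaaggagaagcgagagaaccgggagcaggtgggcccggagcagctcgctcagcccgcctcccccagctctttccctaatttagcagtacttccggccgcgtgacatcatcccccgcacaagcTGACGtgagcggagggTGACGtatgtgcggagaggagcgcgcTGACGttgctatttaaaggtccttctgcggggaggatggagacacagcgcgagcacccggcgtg
Homer1 second start, chr13:93307784-93308083, plus strand: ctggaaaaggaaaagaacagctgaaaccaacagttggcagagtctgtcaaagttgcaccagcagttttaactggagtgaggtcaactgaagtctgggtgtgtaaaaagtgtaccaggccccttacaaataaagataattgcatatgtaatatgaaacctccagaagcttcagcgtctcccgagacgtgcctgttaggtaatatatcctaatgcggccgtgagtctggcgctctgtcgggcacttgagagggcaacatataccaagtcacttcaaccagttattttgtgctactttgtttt
Plk2, chr13:110394794-110395093, plus strand: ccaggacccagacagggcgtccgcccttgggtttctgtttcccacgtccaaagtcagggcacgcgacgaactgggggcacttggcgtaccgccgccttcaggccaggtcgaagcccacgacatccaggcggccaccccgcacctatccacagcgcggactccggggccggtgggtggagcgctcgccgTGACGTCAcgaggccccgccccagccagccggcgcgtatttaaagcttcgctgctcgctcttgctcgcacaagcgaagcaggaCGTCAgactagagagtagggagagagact
Dusp6, chr10:99262981-99263280, plus strand: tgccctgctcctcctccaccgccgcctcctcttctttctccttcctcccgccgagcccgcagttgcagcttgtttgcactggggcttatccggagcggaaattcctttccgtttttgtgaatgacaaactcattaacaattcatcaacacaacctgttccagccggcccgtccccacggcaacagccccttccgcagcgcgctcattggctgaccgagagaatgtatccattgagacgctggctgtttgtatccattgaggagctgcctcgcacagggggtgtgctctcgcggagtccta
The first start of Homer1 had 3 cores, which began 56, 40 and 14 bases before the start, and no full element. The second start of Homer1 had no core in this window. Plk2 had 1 full element, 62 bases before its start, which holds 2 of its 3 cores. Dusp6 had no core. Among the genes not printed, Dusp1 had 1 full element 143 bases before its start, Rgs2 had 2 cores, Ptgs2 had 1 and Inhba had none. In all, 5 of the 8 promoters of these 7 genes had a core and 2 had a full element, while 20.8% of 32851 RefSeq promoters of the same length held the core and 1.79% the full element. None of these promoters held a CArG box, which 1.63% of all promoters did. A match describes the letters and is not a measured binding site.

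Signals are given as log2(signal + 16) after scaling each array, so that 1 unit is close to a 2-fold difference for a bright probe set and less than the true change for a dim one. Differences come from a limma fit over all 27022 tested probe sets with a standard error after ±, and calls were made where the p-value adjusted by Benjamini-Hochberg over all of them was under 0.05. Of the 19 tested probe sets, 1 was called lower in aged impaired than in young samples and none higher, where 1.63% of all tested probe sets were called in either direction and 0.6% lower. The same probe set was the only one of the 19 called in both aged groups together against young samples, where 0.947% of all tested probe sets were called and 0.333% were called lower. No tested probe set of these genes was called between aged impaired and aged unimpaired samples, where 3 probe sets in all (0.0111%) were called, or between aged unimpaired and young samples, where 0.137% were. At an unadjusted p under 0.05, 3 of the 19 passed between the aged groups, 6 between aged impaired and young samples and 3 between aged unimpaired and young samples, against 8.09%, 15.8% and 8.19% of all tested probe sets. Probe sets of the same gene are not independent, and Homer1 and Rgs2 each gave more than 1 of the 6. Those 6 were lower for Homer1 and Nptx2 and higher for Ptgs2 and Rgs2. The median difference of the 19 was -0.02 between the aged groups, -0.05 for aged impaired against young and 0.03 for aged unimpaired against young samples. Medians over all tested probe sets were, in that order, 0.0058, -0.010 and -0.014.

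**Figure D1:**
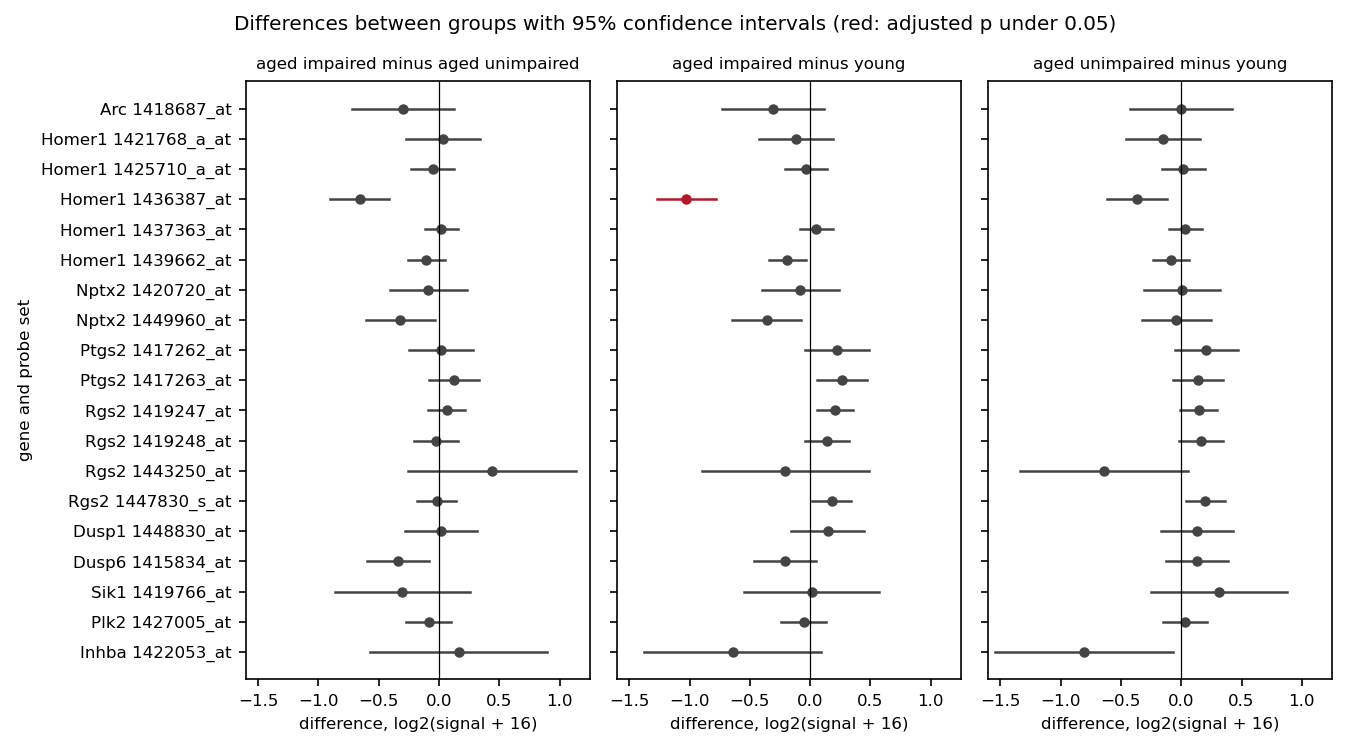
Differences of the 19 tested probe sets in log2(signal + 16), with 95% confidence intervals, for aged impaired minus aged unimpaired, aged impaired minus young and aged unimpaired minus young; red marks an adjusted p under 0.05. Homer1 probe set 1436387_at stands at -1.03 for aged impaired minus young, the only red point, and every other probe set is drawn in grey.

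The called difference was in Homer1, in 1 of its 5 tested probe sets. Probe set 1436387_at had 9.29, 9.47 and 9.85 (lowest, median, highest of 6) in aged impaired samples, 9.87, 10.19 and 10.41 in aged unimpaired samples and 10.23, 10.58 and 10.80 in young samples. Every aged impaired sample lay below every young sample and below every aged unimpaired sample, with a narrow gap to the second, 9.85 against 9.87, while aged unimpaired and young samples overlapped. The mean was 9.51 ± 0.19 in aged impaired, 10.17 ± 0.22 in aged unimpaired and 10.53 ± 0.21 in young samples (SD, n = 6 each). The difference between aged impaired and young samples was -1.03 ± 0.12 (95% confidence interval -1.27 to -0.78, limma adjusted p = 1.48e-04), or 2.04-fold lower, and it ranked 12 by p-value among all tested probe sets. Both aged groups together were lower than young samples by 0.70 ± 0.10 (limma adjusted p = 0.00201), the ranges of which overlapped.

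Between the aged groups the same probe set differed by -0.66 ± 0.12 (interval -0.90 to -0.41), or 1.58-fold lower in aged impaired samples. It ranked 8 by p-value but was not called (limma adjusted p = 0.0839). Such a complete separation with lower values in aged impaired samples held for 0.266% of all tested probe sets between the aged groups and for 0.884% against young samples. Aged unimpaired minus young was -0.37 ± 0.12 (limma adjusted p = 0.343). Over 30 other processing settings and left-out samples, aged impaired minus young stayed between -1.09 and -0.97 and was called in every one. Aged impaired minus aged unimpaired stayed between -0.73 and -0.61 and was called in 2 of 30. In tissue samples such as these, fewer cells of a type and less RNA per cell cannot be told apart.

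None of the other 4 tested Homer1 probe sets was called. The brightest, 1437363_at, had 11.81, 11.91 and 12.08 in aged impaired, 11.75, 11.92 and 12.04 in aged unimpaired and 11.77, 11.86 and 12.003 in young samples. The 3 groups overlapped over nearly their whole range, and aged impaired minus young was 0.05 ± 0.06, with an interval of -0.09 to 0.19 that leaves out a change of the size seen in 1436387_at. Probe set 1439662_at had 10.44, 10.59 and 10.74 in aged impaired, 10.57, 10.72 and 10.83 in aged unimpaired and 10.69, 10.77 and 11.02 in young samples. Its medians stood in the same order as those of 1436387_at, but aged impaired minus young was -0.19 ± 0.07 and was not called (limma adjusted p = 0.206). Probe set 1425710_a_at ranged from 8.65 to 9.08 in aged impaired, 8.79 to 9.12 in aged unimpaired and 8.72 to 9.09 in young samples. Probe set 1421768_a_at ranged from 7.92 to 8.85 in aged impaired, 7.95 to 8.59 in aged unimpaired and 8.41 to 8.66 in young samples, with the lowest values in aged samples. They differed between aged impaired and young samples by -0.03 ± 0.08 and -0.12 ± 0.14. The probe set too dim to test, 1425671_at, had 4.72, 5.27 and 5.84 in aged impaired, 4.87, 5.60 and 6.02 in aged unimpaired and 5.49, 5.88 and 6.43 in young samples. Its mean was 5.26 ± 0.36 in aged impaired, 5.55 ± 0.42 in aged unimpaired and 5.97 ± 0.37 in young samples (SD, n = 6 each), the same order as in 1436387_at, with groups that overlapped and no test. Which form of Homer1 each probe set reads is not given in the sources used here, so the lower signal cannot be assigned to Homer1a or to a long form.

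**Figure D2:**
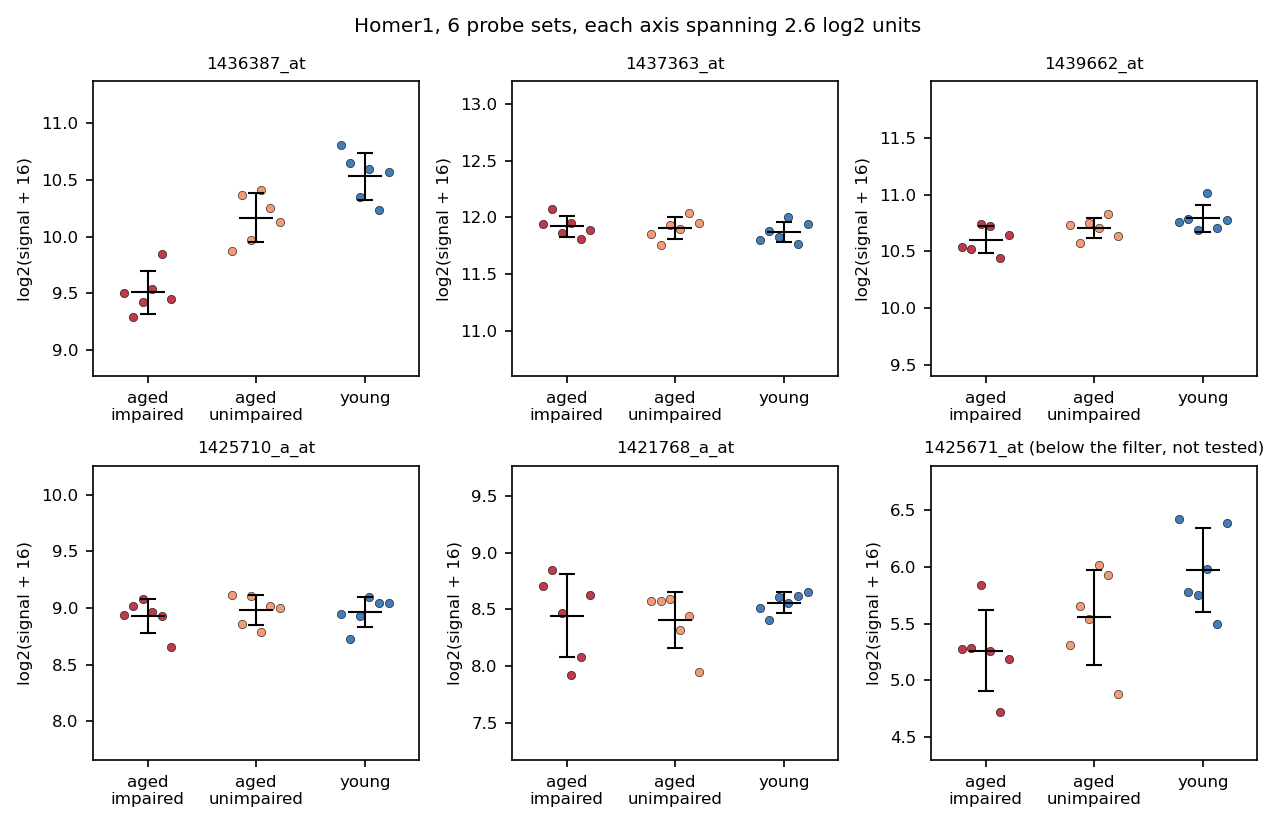
Log2(signal + 16) of the 6 Homer1 probe sets, with aged impaired left, aged unimpaired centre and young right; dots are samples, bars the mean ± SD of 6, and every vertical axis spans the same number of log2 units. In 1436387_at the 6 aged impaired samples lie between 9.29 and 9.85, below all young samples, while in 1437363_at the groups overlap.

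The unequal change within Homer1 was tested as the log2 ratio of each tested probe set to the mean of its gene's other tested probe sets, for the 6281 genes with more than 1, a test added after the values had been seen. The ratio of 1436387_at to the other 4 was -0.83, -0.52 and 0.03 in aged impaired samples, -0.20, 0.21 and 0.48 in aged unimpaired samples and 0.20, 0.45 and 0.80 in young samples. All aged impaired ratios lay below all young ones and overlapped the aged unimpaired ones. The ratio differed between aged impaired and young samples by -0.95 ± 0.15 (limma adjusted p = 0.0270), where 5 of 13325 ratios (0.0375%) were called. That call was lost with the sample number as a block (limma adjusted p = 0.0857) and with only arrays of high choroid plexus signal (limma adjusted p = 0.101). Between the aged groups the ratio differed by -0.63 ± 0.15 and was not called (limma adjusted p = 0.330), where 2 ratios (0.015%) were. Probe set 1436387_at was picked for its low p, and its ratio carries its own aged impaired minus young difference of -1.03. The ratio is thus no separate support for that difference. The ratio of 1437363_at, with 1436387_at among the others, differed by 0.39 ± 0.08 between aged impaired and young samples and was not called (limma adjusted p = 0.0684).

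Arc, whose protein acts on AMPA receptors at the synapse, was read by 1 probe set and was not called in any comparison. It had 9.23, 9.56 and 9.86 in aged impaired samples, 9.13, 9.84 and 10.30 in aged unimpaired samples and 9.39, 9.76 and 10.50 in young samples. The ranges overlapped, and the aged impaired samples spanned the narrowest range. Aged impaired samples differed by -0.30 ± 0.20 from aged unimpaired samples (interval -0.72 to 0.12, limma adjusted p = 0.739) and by -0.30 ± 0.20 from young samples (interval -0.73 to 0.12, limma adjusted p = 0.493). Leaving out single samples moved the first from -0.44 without aged unimpaired replicate 6 to -0.21 without aged unimpaired replicate 5, and the second from -0.39 without young replicate 1 to -0.17 without young replicate 4. Aged unimpaired minus young was -0.0044 ± 0.20. The intervals of the differences of Arc all crossed 0.

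Nptx2 had a bright and a dim probe set. The bright one, 1420720_at, had 8.31, 8.62 and 8.97 in aged impaired, 8.40, 8.76 and 9.07 in aged unimpaired and 8.22, 8.80 and 9.01 in young samples, with overlapping groups and an aged impaired minus aged unimpaired difference of -0.09 ± 0.15. The dim one, 1449960_at, had 6.37, 6.47 and 6.71 in aged impaired, 6.25, 6.90 and 7.12 in aged unimpaired and 6.36, 6.93 and 7.04 in young samples. Its aged impaired median was lowest, but the differences of -0.32 ± 0.14 from aged unimpaired and -0.36 ± 0.14 from young samples were not called (limma adjusted p = 0.577 and 0.199).

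**Figure D3:**
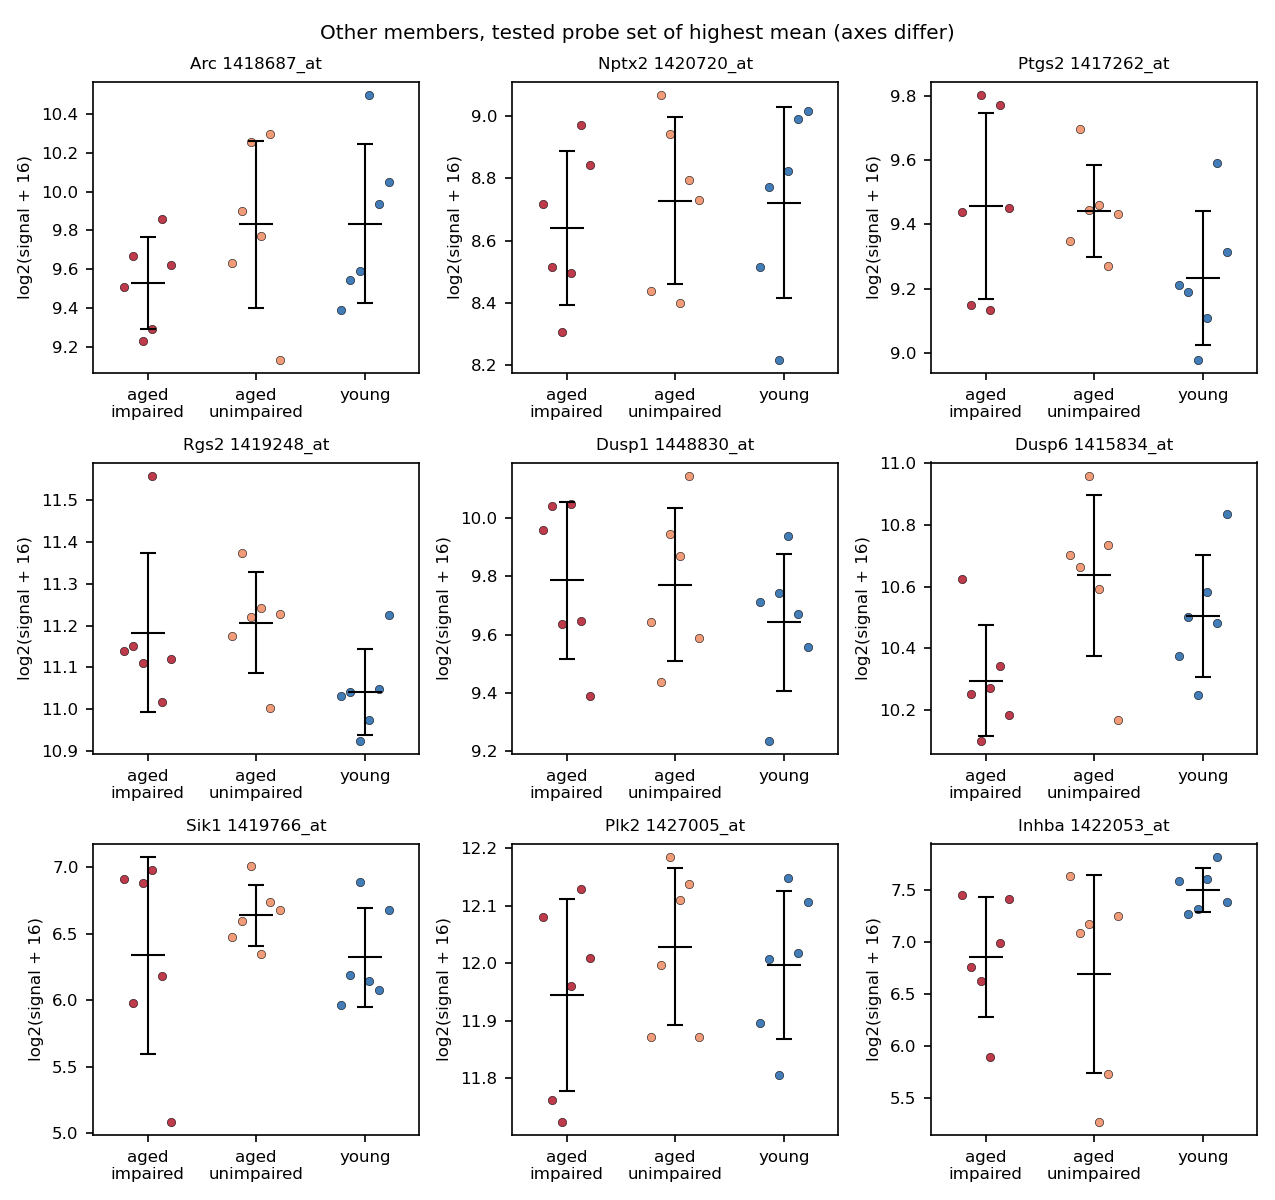
Log2(signal + 16) of the other 9 genes on their brightest tested probe sets, with aged impaired left, aged unimpaired centre and young right; dots are samples and bars the mean ± SD of 6. The groups overlap in every gene, and Inhba spreads from 5.27 to 7.63 in the aged groups against 7.27 to 7.82 in young samples.

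Ptgs2 had small positive differences from young samples in both aged groups that were not called. Probe set 1417262_at had 9.13, 9.44 and 9.80 in aged impaired, 9.27, 9.44 and 9.70 in aged unimpaired and 8.98, 9.20 and 9.59 in young samples. Probe set 1417263_at had 8.66, 8.86 and 8.97 in aged impaired, 8.32, 8.79 and 8.97 in aged unimpaired and 8.40, 8.59 and 8.79 in young samples. In both the groups overlapped, and aged impaired minus young was 0.22 ± 0.13 and 0.27 ± 0.10 (limma adjusted p = 0.400 and 0.188).

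Rgs2 had positive differences against young samples on its 3 bright probe sets, again without a call. The brightest, 1419248_at, had 11.02, 11.13 and 11.56 in aged impaired, 11.002, 11.22 and 11.37 in aged unimpaired and 10.92, 11.04 and 11.23 in young samples. Aged impaired minus young was 0.14 ± 0.09 there, 0.21 ± 0.07 on 1419247_at and 0.18 ± 0.08 on 1447830_s_at, with limma adjusted p of 0.456, 0.161 and 0.258. On 1419247_at the values were 9.98, 10.17 and 10.34 in aged impaired, 9.98, 10.08 and 10.26 in aged unimpaired and 9.85, 9.93 and 10.10 in young samples, so that medians stood higher in both aged groups while the ranges overlapped. The value 0.161 was the lowest adjusted p of any probe set of these genes other than 1436387_at in that comparison. The fourth, dim probe set, 1443250_at, differed by -0.20 ± 0.33 and ranged from 5.69 to 6.55 in aged impaired, 4.39 to 6.52 in aged unimpaired and 5.76 to 6.76 in young samples. The 3 bright probe sets of Rgs2 thus shared 1 direction, and the dim one had the other sign. Its mean of 5.65 in aged unimpaired samples lay below the filter mean of 5.92. For aged impaired minus young, the intervals of 1443250_at (-0.90 to 0.49) and of 1419248_at (-0.04 to 0.32) both crossed 0.

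Inhba was dim and varied more among aged than among young samples. Probe set 1422053_at had 5.89, 6.87 and 7.45 in aged impaired samples, 5.27, 7.13 and 7.63 in aged unimpaired samples and 7.27, 7.48 and 7.82 in young samples. The SD was 0.58 in aged impaired, 0.95 in aged unimpaired and 0.21 in young samples, and the groups overlapped. Both aged groups together minus young was -0.72 ± 0.30 (interval -1.36 to -0.09) and was not called (limma adjusted p = 0.307). Aged impaired minus young was -0.64 ± 0.35 (interval -1.38 to 0.09) and aged unimpaired minus young -0.81 ± 0.35 (interval -1.54 to -0.07). Neither was called (limma adjusted p = 0.387 and 0.556). Leaving out single samples gave -0.76 without aged impaired replicate 1 to -0.45 without aged impaired replicate 4 for aged impaired minus young. It gave -0.99 without aged unimpaired replicate 1 to -0.52 without aged unimpaired replicate 4 for aged unimpaired minus young. The probe set of Inhba too dim to test lay at 4.14 to 5.82 in aged impaired, 4.12 to 4.54 in aged unimpaired and 4.17 to 4.46 in young samples. Whether the spread itself differed between groups was not tested. The lowest aged impaired value, 5.89, and aged unimpaired replicates 4 and 5, at 5.27 and 5.73, lay below 5.92. That was the mean under which probe sets were left out as too dim. Inhba depended on the arrays used: aged impaired minus aged unimpaired was 0.16 ± 0.35 over all arrays and -0.50 on only those of high choroid plexus signal, neither called.

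The phosphatases and kinases that damp the signal were not called either. Dusp6, which acts on ERK, had 10.10, 10.26 and 10.62 in aged impaired, 10.17, 10.68 and 10.96 in aged unimpaired and 10.25, 10.49 and 10.84 in young samples. Its aged impaired median was lowest and the groups overlapped. Aged impaired minus aged unimpaired was -0.34 ± 0.12 (interval -0.60 to -0.08, limma adjusted p = 0.495), the lowest adjusted p of the group after 1436387_at in that comparison, and it ran from -0.44 without aged unimpaired replicate 6 to -0.28 without aged unimpaired replicate 3 when single samples were left out. Dusp1, which acts on several MAP kinases, had 9.39, 9.80 and 10.05 in aged impaired, 9.44, 9.76 and 10.15 in aged unimpaired and 9.24, 9.69 and 9.94 in young samples. Aged impaired minus aged unimpaired was 0.02 ± 0.14 for Dusp1, with an interval of -0.28 to 0.31, and 0.14 ± 0.14 against young samples.

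Plk2 was bright on its tested probe set, with 11.72, 11.98 and 12.13 in aged impaired, 11.87, 12.05 and 12.18 in aged unimpaired and 11.81, 12.01 and 12.15 in young samples. Its differences of -0.08 ± 0.09 between the aged groups and -0.05 ± 0.09 for aged impaired against young samples had intervals of -0.27 to 0.10 and -0.24 to 0.13. Sik1 was dim, with 5.09, 6.53 and 6.98 in aged impaired, 6.35, 6.64 and 7.01 in aged unimpaired and 5.96, 6.17 and 6.89 in young samples. Aged impaired minus young was 0.01 ± 0.27 for Sik1, with an interval of -0.55 to 0.57. For Sik1, aged impaired minus aged unimpaired was -0.30 ± 0.27 (limma adjusted p = 0.805), and -0.05 without aged impaired replicate 6. Its aged unimpaired minus young difference was 0.32 ± 0.27 (limma adjusted p = 0.808). The probe sets too dim to test lay near the floor of the array: that of Sik1 at 4.25 to 5.25 in aged impaired, 4.03 to 5.42 in aged unimpaired and 4.09 to 5.66 in young samples, and that of Plk2 at 4.32 to 4.95 in aged impaired, 4.32 to 5.60 in aged unimpaired and 4.20 to 5.53 in young samples.

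Whether the other genes moved with Arc from sample to sample was described by correlating deviations from the group means over the 18 samples, on each gene's brightest probe set, for 9 genes. All values come from the same arrays, so differences in tissue and RNA between samples are shared. Of the 9, Plk2 followed Arc most closely, with Pearson's r of 0.70 (permutation p = 0.00138, adjusted over the 9 0.0124) and Spearman's rho of 0.72 (permutation p = 0.00146, adjusted 0.0131). Dusp6 gave r of 0.66 (permutation p = 0.00769, adjusted 0.0346) and rho of 0.71 (permutation p = 0.00315, adjusted 0.0142). Without the 2 samples farthest from the median of Arc, aged unimpaired replicate 6 and young replicate 4, r was 0.65 for Plk2 and 0.58 for Dusp6. Within aged impaired, aged unimpaired and young samples r with Arc was 0.51, 0.85 and 0.82 for Plk2 and 0.26, 0.89 and 0.59 for Dusp6.

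Nptx2 passed by rho, at 0.64 (permutation p = 0.00963, adjusted 0.0289), and not by r, at 0.54 (permutation p = 0.0376, adjusted 0.113). Dusp1 and the brightest Homer1 probe set gave r of 0.39 and 0.32, neither past the threshold (adjusted permutation p = 0.293 and 0.415). Ptgs2, Rgs2, Sik1 and Inhba gave r between -0.24 and 0.04. With the choroid plexus signal of each array as a covariate, r was 0.59 for Plk2 and 0.55 for Dusp6 and neither passed (adjusted permutation p = 0.106 for each). The genes of highest r with Arc among 13120 were Eml4 at 0.83, Kctd1 at 0.83, Rgs14 at 0.83, Hnrnpa0 at 0.81 and C1qtnf4 at 0.80, with Plk2 in place 17 and Dusp6 in place 37, and a median r over all of -0.021.

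**Figure D4:**
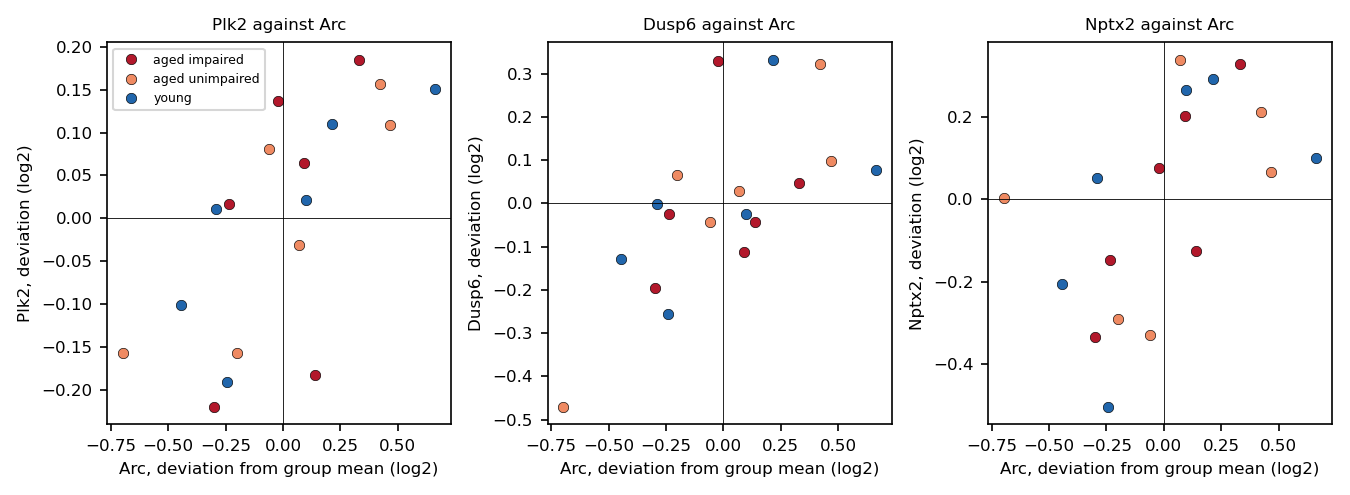
Deviation of Plk2, Dusp6 and Nptx2 from the group mean against that of Arc, in log2(signal + 16), for the 18 samples coloured by group. Points rise from lower left to upper right in each panel, with r of 0.70, 0.66 and 0.54.

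Genes around these effectors were followed in 10 lists of 136 genes, of which 118 were tested. Of these, 1 was called: the immediate early transcription factor Nr4a2, at 11.14 in aged impaired and 11.60 in young samples (-0.46 ± 0.10, limma adjusted p = 0.0314), where 1.9% of all 13121 named genes were called. The 17 tested immediate early transcription factors had 4 higher and 13 lower values in aged impaired than in aged unimpaired samples, with a median difference of -0.12, and Nr4a2 there was -0.35 ± 0.10 and not called. Of all 13121 named genes 6860 were higher and 6261 lower there. In that comparison 6 tested CA1 markers had 1 higher and 5 lower values with a median of -0.17, among them Fibcd1 at -0.43 ± 0.13 and Mpped1 at -0.27 ± 0.07, and 8 neuron markers had 1 higher and 7 lower with a median of -0.06, none called. Higher and lower counts there were 14 and 0 for choroid plexus (median 0.85), 7 and 2 for oligodendrocyte (0.24) and 8 and 3 for microglia (0.21). They were 7 and 3 for astrocyte, 6 and 2 for meninges and fibroblast, 3 and 7 for endothelial and mural, and 3 and 5 for interneuron markers. Dentate granule cell markers had 3 higher and 4 lower (median -0.03), with Prox1 at 0.31 ± 0.15. None was called, and the part of any of these markers in the lower values was not tested. Among 23 other activity-induced genes, 11 were higher and 12 lower in the same comparison, with Vgf, a secreted neuropeptide precursor, at -0.31 ± 0.09, and Per1, a clock gene known to be induced through CREB, at 0.28 ± 0.12. Over the 10 lists 56 genes had higher and 62 lower values in aged impaired than in aged unimpaired samples, and 53 higher and 65 lower than in young samples. Against young samples, 6458 of all named genes were higher and 6663 lower.

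None of the direct partners of the effectors was called. Of 12 partners of Arc and Homer1, 6 were higher and 6 lower between the aged groups, among them the endophilin Sh3gl3 at 0.20 ± 0.10 and the AMPA receptor subunit Gria1 at -0.17 ± 0.09. Both tested pentraxin partners had lower values in aged impaired samples, with Nptx1, a related pentraxin, at -0.20 ± 0.09. Of 20 upstream signalling genes, 12 were higher and 8 lower, with the calcium-activated kinase gene Camk2a at 0.54 ± 0.22. The 7 prostaglandin genes, 7 G protein partners, 10 MAP kinases and phosphatases, 8 partners of SIK and PLK kinases and 12 activin genes had medians between -0.03 and 0.05 in that comparison, with no call. Inhbb, which encodes the other activin subunit, had -0.27 ± 0.13.

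Defining markers of the hippocampus were present, with the CA1 marker Wfs1 at 10.98 to 11.55, the dentate granule cell marker Prox1 at 7.91 to 8.86 and C1ql2, another dentate marker, at 10.56 to 11.24 over all arrays. None of 8 tested neuron markers was called between aged impaired and young samples (median difference -0.04), nor any of 6 CA1 markers (median -0.07) or 7 dentate markers (median -0.15). Of 11 microglia markers 7 were called higher in aged impaired than in young samples, with a median of 0.63, as were 2 of 9 oligodendrocyte markers and 1 of 10 astrocyte markers, Gfap at 0.77 ± 0.14 (limma adjusted p = 0.00992). Over all 13121 named genes 171 were called higher in that comparison. In aged unimpaired against young samples all 11 microglia markers were higher, with a median of 0.60 and 2 called. Oligodendrocyte markers there had 6 higher and 3 lower (median 0.07) and astrocyte markers 6 and 4 (median 0.02), none called. Gfap there was 0.57 ± 0.14 (limma adjusted p = 0.173), and 15 of all named genes were called higher. All 8 meninges and fibroblast markers had lower values in aged impaired than in young samples, with a median of -0.44 and Col1a1, a collagen gene, at -1.14 ± 0.31, and none was called. Transcripts of the choroid plexus, a neighbouring tissue, ranged from 7.05 to 10.37 on average in aged impaired, 6.66 to 10.28 in aged unimpaired and 7.08 to 10.13 in young samples, and lay under 8 in 1, 3 and 1 samples of these groups. On only the 13 arrays above 8, Homer1 1436387_at kept its call against young samples. RNA quality was read from control transcripts as a 3' to 5' ratio, in log2 (mean ± SD, n = 6 each). It was 0.30 ± 0.05 in aged impaired, 0.36 ± 0.06 in aged unimpaired and 0.31 ± 0.07 in young samples. The part of microglia, oligodendrocyte, astrocyte and meninges markers in the Homer1 result was not tested.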

How the data were processed

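The authors deposited 1 intensity value per probe set and array on a linear scale. MAS5 is the tool named, per the submitters' processing notes, and the sample was biotin-labelled total RNA. Each array as deposited had a trimmed mean of 150, and the deposited median intensity was 23.5 to 30.5. Arrays have no read depth, and precision rests on how many there are. Detection calls and scanner files were not used here.

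Each array was scaled to a mean of 500 (2% trimmed from either tail), then log2(value + 16) was taken. Control probe sets (64) and the 40% of lowest mean were left out, which left 27022 with a mean above 5.92. One model of 3 group means over the 18 arrays was fitted in limma 3.58.1 (R 4.3.3), with empirical Bayes and Benjamini-Hochberg adjustment over all tested probe sets in each of 4 comparisons, 2-sided. The median standard error was 0.124. The fit was tested on simulated data. Names came from the platform annotation (34945 probe sets with 1 symbol, 932 with several, 9160 with none), and 34754 symbols were updated through RefSeq GRCm38.p6.

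All probe sets of the 10 genes are given. From each list the genes of lowest unadjusted p were named, and the 5 genes nearest to Arc. Permutations numbered 100000, within groups. The genes and lists were chosen with earlier results of these data known. The alternatives tried included no filter and a 60% filter, quantile normalization, offsets of 1 and of 64, the sample number as a block, array weights, trended robust moderation, only the groups compared, covariates for choroid plexus signal and the 3' to 5' ratio, and leaving out each sample. The fit on arrays of high choroid plexus signal, the ratio of probe sets and the alternatives for Homer1 1436387_at were added after the data were seen. The 18 correlations of same-numbered samples ran from -0.25 to 0.0957, none over 0.1. Such values cannot show whether the numbers mark a shared litter, batch or day, which the labels do not say.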

Additional observations from a re-analysis of the deposited data

Results flagged for a closer look

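In 57 groups of 6 values, 1 sample stood far from the rest in 5, and chance would give about 1 in 20. Rgs2 1419248_at was 11.56 in aged impaired replicate 4, where the next sample had 11.15. Homer1 1425710_a_at was 8.65 in aged impaired replicate 6, where the next had 8.93. Rgs2 1447830_s_at was 11.08 in aged impaired replicate 2. Homer1 1439662_at was 11.02 in young replicate 4, where the next had 10.79. Nptx2 1449960_at was 6.36 in young replicate 3, where the next had 6.88. No group of Homer1 1436387_at had such a sample.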

How the results depend on the processing

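Over 1182 repeats of the differences of the 10 genes on their brightest probe sets, 1121 kept direction and none was called in any; the lowest adjusted p was 0.203. In 61 the sign changed. For Homer1 1436387_at, 117 of 119 repeats kept direction and call, and aged impaired minus aged unimpaired, -0.66, became called with the 60% filter (adjusted p = 0.0346) and with trended robust moderation (adjusted p = 0.0162). The cause of the changes was not tested.

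Counts of called probe sets over the array moved more. For aged impaired minus aged unimpaired there were 6 with the 60% filter, 0 with the replicate block, 9 with trended robust moderation and 0 with only the groups compared, in limma. For aged impaired minus young there were 193 with no filter, 240 with the block, 241 with only the groups compared and 130 with only arrays of high choroid plexus signal. For aged unimpaired minus young there were 13, 17, 22 and 14 under those settings, 58 with trended robust moderation, 57 with array weights and 23 with the 3' to 5' covariate. For both aged groups minus young there were 131 with no filter, 141 with the block and 55 with only high choroid plexus arrays. The replicate block changed no call of these genes, apart from the ratio given for Homer1. Leaving out 1 sample gave 228 to 467 for aged impaired minus young, with the lowest count without aged impaired replicate 6 and also without young replicate 6, and counts of 259 to 292 without aged impaired replicates 2 and 3 and young replicates 1, 3 and 5. It gave 16 to 37 for aged unimpaired minus young, lowest without young replicates 5 and 6, with 19 to 22 without aged unimpaired replicates 1, 3 and 6 and young replicate 2. It gave 116 to 274 for both aged minus young, lowest without young replicate 6, with 136 to 160 without aged unimpaired replicate 3 and young replicates 1, 2, 3 and 5.

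Signs turned as follows, none called. Aged impaired minus aged unimpaired turned for Rgs2 (0.0060) and Dusp1 (-0.012) with array weights, for Inhba with the choroid covariate (-0.026) and on high choroid arrays (-0.50), and for Ptgs2 with the 3' to 5' covariate (-0.022) and on high choroid arrays (-0.097). Aged impaired minus young turned for Sik1 with offset 1 (-0.035). Aged unimpaired minus young turned for Arc with quantile normalization (0.0022), array weights (0.0088) and the 3' to 5' covariate (0.018), for Nptx2 with array weights (-0.043) and the choroid covariate (-0.048), for Plk2 with the choroid covariate (-0.027) and on high choroid arrays (-0.061), and there also for Homer1 (-0.0048) and Dusp1 (-0.10). The correlation with Arc turned for Ptgs2 (-0.017) and Inhba (0.20) with the choroid covariate. Leaving out 1 sample gave, for aged impaired minus aged unimpaired, Homer1 -0.013 to 0.044, Ptgs2 -0.053 to 0.081, Rgs2 -0.099 to 0.0093, Dusp1 -0.052 to 0.095 and Inhba -0.12 to 0.35; for aged impaired minus young, Sik1 -0.12 to 0.26; for aged unimpaired minus young, Arc -0.098 to 0.14, Nptx2 -0.095 to 0.072 and Plk2 -0.0061 to 0.063; and for both aged minus young, Nptx2 -0.14 to 0.021, Dusp6 -0.090 to 0.028 and Plk2 -0.048 to 0.020. Dim signals limit Sik1 and Inhba.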
